A study of Mus musculus with 18 samples.

Results

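The genes described here encode the aminoacyl-tRNA synthetases, the enzymes that load amino acids onto transfer RNA, and were taken as all protein-coding genes whose description in the deposited gene count table contains the words tRNA synthetase. The rule found 42 of the 56748 genes in the table, which holds 21970 protein-coding genes and 27701 genes with at least 1 count in some library. Of the 42, 21 encode cytosolic enzymes (Gars and Kars serve both compartments from 1 gene and were counted here), 17 encode mitochondrial enzymes, and 4 do not charge tRNA themselves. The last 4 are Aimp1 and Aimp2, scaffold proteins of the multi-synthetase complex, and the domain-containing genes Aarsd1 and Prorsd1. The pseudogene Kars-ps1 matched the description but not the biotype, had 0 counts in every library and was left out.

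RNA was sequenced from RAW 264.7 cells, a mouse macrophage line, in 6 conditions with 3 biological replicates each, 18 libraries in all. All 18 carry the label WT in the deposited count table, and no other genotype is given. Control cells were left untreated after seeding. The TBHQ group received 5 µM tert-butylhydroquinone (TBHQ), a phenolic food antioxidant, for 4 h. The LPS group received 0.1 µg/mL lipopolysaccharide, a bacterial cell wall component, for 12 h, and the PIC group 20 µg/mL polyinosinic:polycytidylic acid, a synthetic double-stranded RNA, for 12 h. In the LPS + TBHQ and PIC + TBHQ groups the 4 h with TBHQ came before the 12 h with the stimulus. TBHQ stocks were made in DMSO, and no solvent treatment is named for the control, so TBHQ and its solvent cannot be told apart. The TBHQ group was taken at 4 h, whereas the study's timeline sets the control, whose label gives no harvest time, beside the groups of 12 h. TBHQ alone and harvest time thus cannot be told apart. P-values rest on the spread between replicates within conditions, pooled over the 6 conditions and moderated across genes, and not on that of 1 condition alone. All replicates were grown from 1 cell line.

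Each synthetase joins 1 amino acid to its matching tRNA with the energy of ATP, and the charged tRNA then feeds the ribosome. Animal cells run separate sets of these enzymes for the cytosol and for mitochondria, both encoded in the nucleus, and several cytosolic enzymes are held together with scaffold proteins in the multi-synthetase complex. Many cytosolic synthetase genes are known targets of ATF4, the transcription factor of the amino acid and stress response, while the tryptophan enzyme is known to be induced by interferon.

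Total counts ran from 14423390 to 18851626 per library, with a median of 15742337. All 42 members passed the filter on low counts and were tested among 13691 genes. All 9 macrophage markers checked were present in every condition, with lysozyme (Lyz2) the most abundant at a mean of 4531 FPKM in the control. Summed over these 9 genes, the level was 6445, 6504 and 6130 FPKM in the control libraries, 5937, 5728 and 6055 with LPS and 6006, 6148 and 6246 with PIC. The sum hides changes in both directions. Lyz2 had means of 3688 with LPS and 3464 with PIC, and of the 9 genes LPS raised 4 and lowered 3 while PIC raised 5 and lowered 3, from Adgre1 (1.45 and 1.86) to Csf1r (−0.75 and −0.85) in log2 fold change. Among 13 markers of fibroblasts, T cells, B cells, epithelium and endothelium, the highest count in any library was 8. Between libraries of the same condition the chi-square per gene was 2.59 to 4.99 over 18 pairs, above counting error, and 0 pairs were identical.

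In control cells the cytosolic enzymes were far more abundant per length than the mitochondrial ones. The median of the means over 3 libraries was 48.5 FPKM for the 21 cytosolic genes and 4.60 FPKM for the 17 mitochondrial genes. Nars, which charges tRNA with asparagine, was the highest member at 113 ± 0.875 FPKM (SD, n = 3), followed by Sars (serine) at 98.3 ± 2.46, Rars (arginine) at 95.7 ± 1.08 and Gars (glycine) at 91.0 ± 1.13. The libraries of these 4 genes did not overlap with each other, whereas the ranges of Kars and Tars, neighbours further down the order, did. The mitochondrial leucine enzyme Lars2 stood out in its class at 29.3 ± 3.81 FPKM, above the cytosolic genes Qars, Yars, Eprs, Farsa, Cars and Tarsl2 by mean. At the lower end of the charging enzymes were Nars2 at 1.95 ± 0.0606 and the cytosolic threonine enzyme Tarsl2 at 2.28 ± 0.469, whose ranges did overlap. Aarsd1, the lowest member, had 0.479 ± 0.0670 FPKM, which rests on 24, 20 and 27 counts.

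LPS and PIC were each compared with the control to ask how bacterial and viral-type stimuli change these genes. Both comparisons use the same 3 control libraries. After 12 h most cytosolic synthetase genes were higher and many mitochondrial ones lower. With LPS, 15 of 21 cytosolic genes rose and 2 fell, and with PIC again 15 rose and 2 fell. In the fit of all libraries no mitochondrial gene was called higher with either stimulus, whereas 8 of 17 fell with LPS and 12 of 17 with PIC. Calls are from the quasi-likelihood test of edgeR at a Benjamini-Hochberg FDR below 0.05. Over all 13691 genes tested, LPS gave 24% called higher and 24.1% called lower, and PIC 28.6% and 30.1%. The count of 0 raised mitochondrial genes held at an unadjusted p below 0.05, where it was also 0 for each stimulus, and under DESeq2 and limma, but not in every fit without 1 library. Wars2, the mitochondrial tryptophan enzyme, was called higher with LPS without control replicate 1 (FDR 0.0357), and with PIC without control replicate 1 (FDR 0.0331) or PIC replicate 3 (FDR 0.0244). The median log2 fold change of the cytosolic genes was 0.25 with LPS and 0.25 with PIC, that of the mitochondrial genes −0.18 and −0.34, and that of all genes tested −0.0040 and −0.0146. Without control replicate 2 or LPS replicate 2 the members called lower with LPS numbered 7 in place of 11. Rars2 was called lower with LPS without LPS replicate 1 (FDR 0.014) and Tars2 without control replicate 2 (FDR 0.0481). Calls gained by Lars2 are given below. Fewer cells of a type and less RNA per cell cannot be told apart in bulk libraries.

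These directions depend in part on the scaling. Under scaling by total library size in place of TMM, the median of all genes shifted to −0.0919 with LPS, −0.232 with PIC and −0.138 in PIC against LPS, and the changes above are relative to that shift. The cytosolic split was then 13 higher and 3 lower with LPS and 9 higher and 7 lower with PIC, and 0 mitochondrial genes were higher, with 12 lower for LPS and 16 lower for PIC. Of all 13691 genes tested, this scaling called 2454 higher and 4558 lower with LPS and 2379 higher and 6635 lower with PIC. The cytosolic and mitochondrial medians became 0.161 and −0.266 with LPS and 0.0304 and −0.552 with PIC. The deposited FPKM hold such a scaling too. They equal counts scaled by gene length and by total counts, times a constant per library, 0.9428 to 0.9511 in the control, 1.005 to 1.015 with LPS and 1.112 to 1.116 with PIC. Multiplied by the TMM factor of its library this constant was 1.004 to 1.019. Levels are given as deposited, and unscaled below means without the constant.

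The cytosolic genes with the largest rise were Nars, Sars, Aars and Cars, which charge tRNA with asparagine, serine, alanine and cysteine. Nars (ENSMUSG00000024587) stood at 112, 112 and 114 FPKM in the control, 185, 178 and 175 with LPS, and 199, 204 and 194 with PIC. The control libraries were the lowest and the PIC libraries the highest, and the 3 groups did not overlap, though unscaled the LPS and PIC libraries did. The log2 fold change of Nars was 0.66 ± 0.0239 (SE, n = 3, FDR 8.93e-20) with LPS and 0.80 ± 0.0216 (SE, n = 3, FDR 1.30e-22) with PIC. Standard errors throughout come from the libraries of the compared conditions alone, whereas each FDR comes from the fit of all libraries.

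Sars (ENSMUSG00000068739, chr3:108332181-108352525) gave 101, 96.8 and 97.0 FPKM in the control, 166, 155 and 154 with LPS, and 170.3, 174 and 165 with PIC. Its stimulated libraries were all above the control, and the LPS and PIC ranges overlapped. The gene rose by 0.68 ± 0.0400 (SE, n = 3, FDR 4.59e-19) with LPS and 0.77 ± 0.0314 (SE, n = 3, FDR 5.47e-21) with PIC on the log2 scale. Aars (ENSMUSG00000031960, chr8:111759776-111784296) was measured at 33.2, 34.4 and 33.6 FPKM in the control, 54.9, 52.5 and 56.2 with LPS, and 55.2, 56.2 and 56.1 with PIC. Again the control libraries were the lowest and those of LPS and PIC overlapped, PIC being below LPS unscaled, with log2 fold changes of 0.69 ± 0.0310 (SE, n = 3, FDR 1.91e-19) and 0.71 ± 0.0171 (SE, n = 3, FDR 3.10e-20). Cars (ENSMUSG00000010755, chr7:143110967-143153827) reached 18.5, 19.4 and 18.6 FPKM in the control, 31.8, 29.7 and 29.4 with LPS, and 32.3, 32.4 and 31.9 with PIC. Control values were below all others, and the PIC libraries were above the LPS libraries, with overlap unscaled. Its log2 fold changes were 0.68 ± 0.0396 (SE, n = 3, FDR 3.82e-16) with LPS and 0.75 ± 0.0224 (SE, n = 3, FDR 8.06e-18) with PIC.

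Eprs (ENSMUSG00000026615, chr1:185095241-185160557), the fused enzyme for glutamate and proline in the multi-synthetase complex, rose less. Its level was 26.2, 26.0 and 26.4 FPKM in the control, 32.5, 32.6 and 31.4 with LPS, and 31.2, 31.1 and 30.7 with PIC. No stimulated library overlapped with the control, though unscaled PIC did (28.1, 27.9 and 27.6 against 27.6, 27.5 and 28.0), and the PIC libraries lay below the LPS libraries. The log2 fold change was 0.29 ± 0.0174 (SE, n = 3, FDR 7.27e-10) with LPS and 0.23 ± 0.00998 (SE, n = 3, FDR 7.78e-08) with PIC, and under scaling by total library size the call with PIC was lost (log2 fold change 0.0085, FDR 0.823). Besides these, Gars, Rars, Iars, Lars, Tars, Yars, Farsb, Hars and Kars were called higher with both stimuli, Wars with LPS and Farsa with PIC. Gars and Rars, the enzymes for glycine and arginine, had log2 fold changes of 0.46 (FDR 1.10e-14) and 0.41 (FDR 1.37e-12) for LPS and of 0.40 (FDR 2.51e-13) and 0.46 (FDR 6.11e-14) for PIC. The rise of Kars with LPS, 0.11 (FDR 0.0235), was lost without control replicate 2 (FDR 0.0576), control replicate 3 (FDR 0.0677) or LPS replicate 1 (FDR 0.0651), and under no filter on low counts (FDR 0.0555). With PIC the call for Kars, 0.11 (FDR 0.0137), was lost without control replicate 3 (FDR 0.0510), and that for Farsa, 0.12 (FDR 0.0196), without control replicate 2 (FDR 0.0799). Under total library size the estimates with PIC turned negative for Kars (−0.11, FDR 0.0169), Hars (−0.02, FDR 0.621) and Farsa (−0.09, FDR 0.059), and the calls of Yars (FDR 0.479) and Farsb (FDR 0.109) were lost. With LPS it ended the calls of Kars (FDR 0.725) and Hars (FDR 0.0606). Qars, Mars1 and Dars were not called with either stimulus. Total library size called Qars (FDR 7.15e-06), Mars1 (FDR 7.29e-08) and Dars (FDR 0.00168) lower with PIC and Dars lower with LPS (FDR 0.0472). Dars was called higher with PIC by RLE size factors (FDR 0.0377), by limma with either pseudocount (FDR 0.0164 and 0.0169), with a mean of at least 50 counts (FDR 0.0183) and without PIC replicate 3 (FDR 0.0328).

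The valine and the second threonine enzyme went the other way. Vars (ENSMUSG00000007029, chr17:35219963-35235298) stood at 62.6, 61.0 and 61.8 FPKM in the control, 45.9, 44.8 and 49.3 with LPS, and 36.9, 37.8 and 41.1 with PIC. The 3 groups did not overlap, with the control highest and PIC lowest, and the gene fell, at log2 fold changes of −0.41 ± 0.0428 (SE, n = 3, FDR 6.20e-11) with LPS and −0.69 ± 0.0480 (SE, n = 3, FDR 3.76e-17) with PIC. Tarsl2 (ENSMUSG00000030515, chr7:65294646-65341839), a low-level relative of the cytosolic threonine enzyme, gave 2.19, 2.79 and 1.86 FPKM in the control, 1.66, 1.72 and 1.60 with LPS, and 1.10, 0.875 and 0.999 with PIC. It too was highest in the control and lowest with PIC without overlap. The log2 fold changes were −0.47 ± 0.171 (SE, n = 3, FDR 0.00240) with LPS and −1.22 ± 0.192 (SE, n = 3, FDR 1.17e-09) with PIC, the first lost without control replicate 2 (−0.295, FDR 0.0649). Tarsl2 shares 923 bases on the same strand with Tm2d3, so its counts are uncertain.

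Wars (ENSMUSG00000021266, chr12:108825956-108860100), the interferon-inducible tryptophan enzyme, was set beside 12 interferon-induced genes. Its values were 57.8, 60.5 and 61.1 FPKM in the control, 67.7, 66.1 and 69.8 with LPS, and 62.1, 61.6 and 62.3 with PIC. LPS libraries were the highest, and the PIC libraries lay just above the control as deposited but below it unscaled (55.8, 55.2 and 55.9 against 60.7, 63.9 and 64.8). Wars rose with LPS (0.17 ± 0.0324, SE, n = 3, FDR 1.16e-04) and was not called with PIC (0.04 ± 0.0244, SE, n = 3, FDR 0.421), where total library size turned its log2 fold change to −0.18 (FDR 4.15e-05), a called decrease. The interferon-induced genes rose in 11 of 12 cases with LPS and 12 of 12 with PIC, at medians of 0.97 and 2.21. The largest were Gbp2 (3.14) and Rsad2 (1.94) with LPS, and Rsad2 (3.85) and Gbp2 (3.81) with PIC.

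Grouped by role, the 13 cytosolic genes listed as ATF4 targets and the 8 others were counted apart. The list was chosen with earlier results of these data known, so the split is only a description. With LPS, 11 of the 13 rose and 1 fell at a median log2 fold change of 0.36, and 4 of the 8 others rose and 1 fell at a median of 0.08. With PIC, 10 of 13 rose and 1 fell (median 0.39), against 5 and 1 of 8 (median 0.12). Under total library size with PIC, Eprs and Yars of the 13 lost their calls, and Mars1 and Wars were called lower. Of the 8, Farsb, Hars and Farsa lost theirs, and Kars, Qars and Dars were called lower. With LPS that setting ended the calls of Kars and Hars of the 8 and called Dars lower. Summed over the 13 genes the level was 724, 714 and 718 FPKM in the control, 978, 940.5 and 958 with LPS and 972, 982 and 970.2 with PIC. No stimulated library overlapped with the control. The LPS and PIC libraries overlapped as deposited, and PIC was below LPS unscaled. Among 10 members of the multi-synthetase complex, 5 rose with each stimulus, where 24% of all genes tested rose with LPS and 28.6% with PIC, and the scaffold gene Aimp2 fell with LPS. Under total library size with PIC the rise of Eprs was lost, and Kars, Qars, Mars1, Dars, Aimp1 (FDR 3.58e-07) and Aimp2 (FDR 7.28e-05) were called lower. With LPS the rise of Kars was then lost, and Dars and Aimp1 (FDR 0.0482) were called lower. Differences between these groups of genes were not tested.

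Among the mitochondrial genes that fell were Vars2 and Mars2, which charge mitochondrial tRNA with valine and methionine. Vars2 (ENSMUSG00000038838, chr17:35966526-35978484) stood at 4.43, 4.65 and 4.72 FPKM in the control, 3.04, 3.10 and 3.29 with LPS, and 2.09, 2.36 and 2.44 with PIC. Every LPS library was below the control and every PIC library below LPS. The log2 fold changes were −0.56 ± 0.0442 (SE, n = 3, FDR 3.78e-07) with LPS and −1.01 ± 0.0714 (SE, n = 3, FDR 6.68e-13) with PIC. Mars2 (ENSMUSG00000046994, chr1:55276336-55287629) gave 2.40, 2.40 and 2.05 FPKM in the control, 1.51, 1.57 and 1.60 with LPS, and 1.10, 1.32 and 1.22 with PIC. The same order without overlap held, and Mars2 fell, at −0.55 ± 0.0811 (SE, n = 3, FDR 7.66e-07) and −0.92 ± 0.107 (SE, n = 3, FDR 1.32e-11).

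Cars2 (ENSMUSG00000056228, chr8:11563977-11600783), the mitochondrial cysteine enzyme, was measured at 2.74, 3.15 and 3.42 FPKM in the control, 2.48, 2.37 and 2.44 with LPS, and 1.82, 2.08 and 1.88 with PIC. All LPS libraries were below the control and all PIC libraries below LPS, and the gene fell by 0.36 ± 0.0938 (SE, n = 3, FDR 6.96e-04) with LPS and 0.71 ± 0.108 (SE, n = 3, FDR 1.56e-08) with PIC on the log2 scale. Yars2, Ears2, Iars2 and Hars2 were also called lower with both stimuli, and Tars2, Aars2, Nars2 and Rars2 were called lower with PIC. Lars2 was not called with LPS (−0.18, FDR 0.157) or PIC (−0.16, FDR 0.197). It was called lower with LPS under no filter on low counts (FDR 2.33e-05), the compared conditions alone (FDR 0.0142) and total library size (FDR 0.0315). With PIC it was called lower under no filter on low counts (FDR 2.37e-04), total library size (FDR 0.0021), the replicate block (FDR 0.0499) and without PIC replicate 1 (FDR 0.0357). The LPS call for Iars2, −0.12 (FDR 0.0299), was lost without control replicate 2 (FDR 0.106), control replicate 3 (FDR 0.166), LPS replicate 1 (FDR 0.0637), LPS replicate 2 (FDR 0.0517) or LPS replicate 3 (FDR 0.167). It was also lost under no filter on low counts (FDR 0.0757), a mean of at least 50 counts (FDR 0.0677), the compared conditions alone (FDR 0.0575), DESeq2 (FDR 0.0696), limma on log2(FPKM + 1) (FDR 0.0589) and limma on log2(FPKM + 0.1) (FDR 0.0583). For Hars2, −0.18 (FDR 0.0330), the LPS call was lost without control replicate 2 (FDR 0.0553), control replicate 3 (FDR 0.141), LPS replicate 2 (FDR 0.0965) or LPS replicate 3 (FDR 0.127), and under no filter on low counts (FDR 0.0940), a mean of at least 50 counts (FDR 0.0546) and DESeq2 (FDR 0.0934). For Ears2 with LPS, −0.33 (FDR 0.0124), the call was lost without control replicate 2 (FDR 0.0527), LPS replicate 1 (FDR 0.0512) or LPS replicate 2 (FDR 0.0811). For Nars2 with PIC, −0.34 (FDR 0.0102), it was lost without PIC replicate 2 (−0.21, FDR 0.133). Iars2 overlaps Rab3gap2 on the opposite strand by 2034 bases and Cars2 overlaps Naxd by 984 bases, so reads of such pairs may not have been told apart. The study's methods describe strand-specific libraries, the labels name both directional and non-directional ones, and the strand setting of the counting is not given.

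As a sum, the 21 cytosolic genes gave 1063, 1050.0 and 1054 FPKM in the control, 1369, 1331 and 1349 with LPS and 1374, 1390.0 and 1376 with PIC. The mitochondrial sum over 17 genes was 130.2, 122 and 126 FPKM in the control, 111, 107 and 112 with LPS and 105, 102 and 101 with PIC. The first sum was higher and the second lower in all 6 stimulated libraries than in any control library, as also unscaled. Between the stimuli the cytosolic sum was higher with PIC than with LPS in every library as deposited but lower in every library unscaled. Their ratio, cytosolic over mitochondrial, was 8.38 ± 0.207 in the control (SD, n = 3), 12.3 ± 0.257 with LPS and 13.4 ± 0.271 with PIC. Without Lars2, the most abundant mitochondrial gene, the ratio was 10.9 ± 0.138, 16.1 ± 0.238 and 18.1 ± 0.500 in the same order.

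In 18 pairs of a cytosolic and a mitochondrial enzyme for the same amino acid, the cytosolic log2 fold change was the larger in 17 with LPS and 17 with PIC. The median difference was 0.55 and 0.67. Farsa against Fars2 was the exception with LPS (0.002 and 0.13), and Wars against Wars2 with PIC (0.04 and 0.16). These 4 estimates were not called in the fit of all libraries. The pairs share genes, since Farsa and Farsb are both set against Fars2, and Eprs against both Ears2 and Pars2. Tarsl2, also a cytosolic threonine enzyme, was left out of the pairs. It fell more than Tars2, at −0.47 against −0.10 with LPS and −1.22 against −0.40 with PIC.

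Of the 4 members that do not charge tRNA, Aimp2 was the called one with LPS, −0.25 (FDR 0.00965), lost without control replicate 2 (FDR 0.0554) or LPS replicate 2 (FDR 0.0674), and Aarsd1 and Prorsd1 were called lower with PIC. Aarsd1 (ENSMUSG00000075528, chr11:101297665-101308441) had 0.512, 0.402 and 0.523 FPKM in the control, 0.231, 0.456 and 0.275 with LPS, and 0.0480, 0.141 and 0.194 with PIC. PIC libraries were below all others, and those of LPS overlapped with the control. The log2 fold change with PIC was −1.86 ± 0.430 (SE, n = 3, FDR 1.51e-04). Aarsd1 is uncertain, because the PIC libraries hold 2, 6 and 10 counts and 39.1% of its 50-base words occur in other genes, among them the overlapping Gm27029. Prorsd1 fell with PIC, −0.28 (FDR 0.00887), a call lost without control replicate 3 (FDR 0.112) or PIC replicate 1 (FDR 0.0664). By the threshold the study's methods state, FDR below 0.01 with an absolute log2 fold change above 2, 224 genes (1.64%) passed with LPS, 489 (3.57%) with PIC and 26 (0.19%) with TBHQ alone. In each of these comparisons 0 of 42 members passed by edgeR, DESeq2 or limma, while 27, 31 and 17 members had an unadjusted p below 0.05 in edgeR. Under total library size 1 member, Aarsd1, passed in PIC against control.

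**Figure D1:**
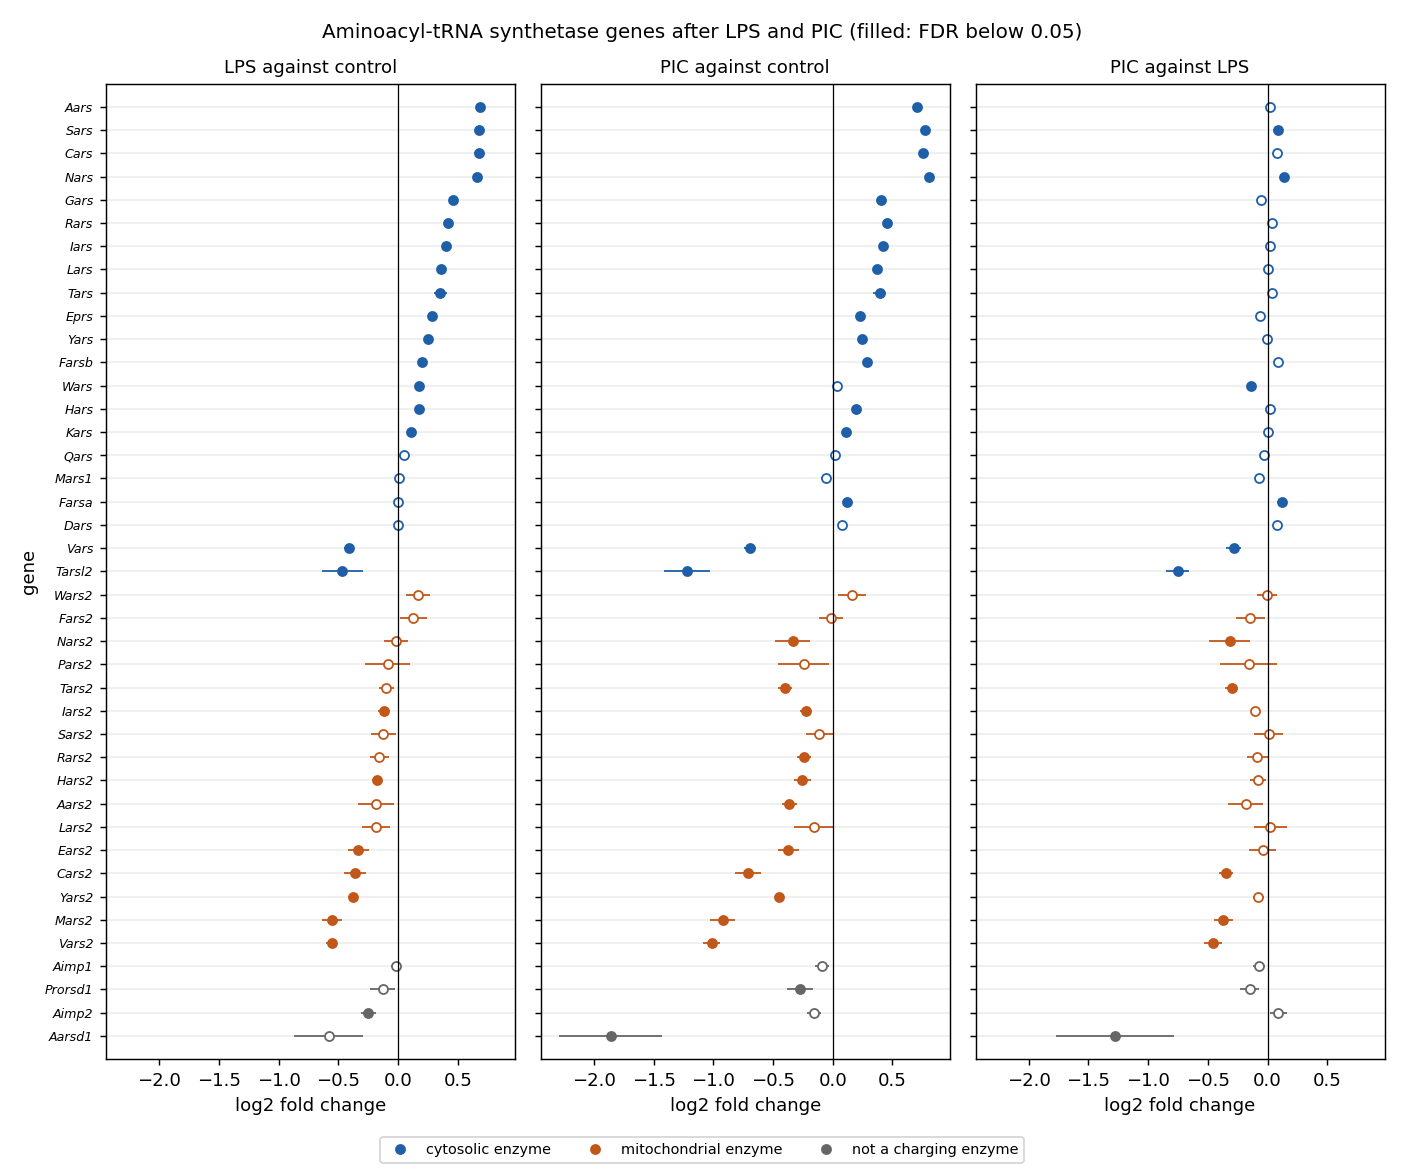
Log2 fold change of each of 41 genes (points, with bars for the standard error, n = 3 libraries per condition; filled points are called at FDR below 0.05 by edgeR with TMM scaling) in LPS against control, PIC against control and PIC against LPS. Most cytosolic genes lie right of 0 and most mitochondrial genes left of it in the first panels, and under scaling by total library size the cytosolic split with PIC becomes 9 higher and 7 lower. Of all 13691 genes tested, 2379 are then higher and 6635 lower with PIC. Standard errors come from the libraries of the compared conditions alone, and calls from the fit of all libraries.

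PIC was compared with LPS directly to ask where the stimuli differ. Of the 21 cytosolic genes 3 were higher and 3 lower in PIC (14.3% each way, near the shares of all genes) at a median log2 fold change of 0.02, and of the 17 mitochondrial genes 6 were lower and 0 higher at a median of −0.14. Over all genes tested 14.9% were called higher and 12.8% lower, with a median of −0.0087. The cytosolic median was 0.00253 without LPS replicate 2, 0.0298 without PIC replicate 1 and 0.00824 without PIC replicate 3, and −0.112 under total library size. The 0 mitochondrial genes in the higher direction were also 0 at an unadjusted p below 0.05 in edgeR and in the calls of DESeq2 and limma. Nars (0.14, FDR 4.43e-04), Farsa (0.12, FDR 0.0460) and Sars (0.09, FDR 0.0375) were higher with PIC. Without LPS replicate 2, PIC replicate 1 or PIC replicate 2 the members called higher numbered 1 in place of 3. The cytosolic split was 4 higher and 3 lower by DESeq2 and RLE size factors, which added Farsb, and 5 and 3 by limma on log2(FPKM + 1), which added Farsb and Dars. Under total library size the call for Nars was lost (FDR 0.821), the log2 fold changes of Sars and Farsa turned to −0.04 (FDR 0.336) and −0.0091 (FDR 0.893), and the split of calls became 0 higher and 15 lower among cytosolic and 0 higher and 12 lower among mitochondrial genes. Of all 13691 genes tested, that scaling called 985 higher and 4373 lower. Farsa, the alpha subunit of the phenylalanine enzyme, had 21.3, 21.5 and 22.9 FPKM with LPS and 24.5, 23.9 and 23.6 with PIC. All PIC libraries were above LPS, with overlap unscaled, and the call was lost without LPS replicate 1 (FDR 0.171), LPS replicate 2 (FDR 0.110), PIC replicate 1 (FDR 0.127) or PIC replicate 2 (FDR 0.0791), and under no filter on low counts (FDR 0.0914) and the compared conditions alone (FDR 0.0755). The call for Sars was lost without LPS replicate 2 (FDR 0.108), LPS replicate 3 (FDR 0.148), PIC replicate 1 (FDR 0.0728) or PIC replicate 2 (FDR 0.145), and under the compared conditions alone (FDR 0.0993).

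Lower with PIC than with LPS were Tarsl2 (−0.75, FDR 1.04e-04), Vars2 (−0.46, FDR 1.26e-04), Mars2 (−0.37, FDR 0.00195) and Aarsd1 (−1.28, FDR 0.0258). Cars2, Nars2, Tars2, Vars and Wars were also among the genes called lower. The Aarsd1 call was lost without LPS replicate 2 (FDR 0.182), PIC replicate 1 (FDR 0.145) or PIC replicate 2 (FDR 0.0521), and under the compared conditions alone (FDR 0.0522). For Nars2, −0.32 (FDR 0.0338), it was lost without LPS replicate 1 (FDR 0.228), PIC replicate 2 (−0.204, FDR 0.239) or PIC replicate 3 (FDR 0.0838) and under no filter on low counts (FDR 0.0587), the compared conditions alone (FDR 0.0805), DESeq2 (FDR 0.0739), limma on log2(FPKM + 1) (FDR 0.0565) and limma on log2(FPKM + 0.1) (FDR 0.0658). Wars was lower with PIC than with LPS, −0.14 (FDR 0.00332), and all 12 interferon-induced genes were higher, at a median of 0.82. Eprs was not called (−0.06, FDR 0.144), but was called lower under total library size (−0.19, FDR 7.03e-06).

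TBHQ alone was compared with the control to see its own effect, with the difference in time named above. Members were called in both directions, at shares not far from those of all genes. Of the 21 cytosolic genes 2 were higher and 4 lower (median log2 fold change 0.02), of the 17 mitochondrial genes 4 were higher and 2 lower (median −0.02), and 2 of the 4 others were lower. In all, 6 of 42 members (14.3%) were higher and 8 (19.0%) lower, where 14.2% of all genes tested were higher and 14.8% lower with a median of −0.0001. The class medians are small and moved with single libraries. The cytosolic one was 0.0345 without TBHQ replicate 2, and the mitochondrial one −0.0425 without control replicate 1, −0.0132 without control replicate 2, −0.0359 without control replicate 3, −0.00366 without TBHQ replicate 1 and −0.0417 without TBHQ replicate 2. With RLE size factors, DESeq2 and limma on log2(FPKM + 1) the cytosolic split was 4 higher and 4 lower each, with Mars1 and Hars added as higher. The 6 members called higher became 2 without control replicate 2, 3 without control replicate 3 and 3 without TBHQ replicate 3. The fall of Lars2 (ENSMUSG00000035202, chr9:123195992-123291731) was the largest. This mitochondrial leucine enzyme stood at 33.6, 26.6 and 27.6 FPKM in the control and 23.2, 18.5 and 15.2 with TBHQ. TBHQ libraries were all below the control ones, with wide spread in both groups, and the log2 fold change was −0.63 ± 0.207 (SE, n = 3, FDR 1.74e-05).

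Sars and Wars, both cytosolic, were also lower. Sars fell to 87.0, 83.9 and 88.5 FPKM and Wars to 53.3, 51.5 and 53.0, each below all control libraries. Their log2 fold changes were −0.19 (FDR 3.31e-05) and −0.19 (FDR 1.19e-04). Prorsd1 had 9.40, 10.1 and 11.7 FPKM in the control and 8.24, 8.91 and 7.78 with TBHQ. Its TBHQ libraries lay below the control and it fell, at −0.33 (FDR 0.00534), a call lost without control replicate 3 (FDR 0.0824). Rars2, the mitochondrial arginine enzyme, gave 14.0, 13.3 and 13.3 FPKM in the control and 11.8, 11.4 and 11.7 with TBHQ. These did not overlap, and the call, −0.22 (FDR 0.0143), was lost without control replicate 1 (FDR 0.0673). Aimp1, a scaffold of the complex, was at 16.9, 16.3 and 15.7 FPKM in the control and 14.6, 14.3 and 13.7 with TBHQ. It fell, at −0.20 (FDR 0.00104), with no overlap.

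The raised mitochondrial genes were Sars2, Mars2, Iars2 and Yars2, for serine, methionine, isoleucine and tyrosine. Sars2 stood at 5.09, 4.78 and 5.64 FPKM in the control and 6.25, 6.24 and 6.46 with TBHQ. TBHQ libraries were above the control ones, and the call, 0.28 (FDR 0.0212), was lost without control replicate 1 (FDR 0.0597), control replicate 2 (FDR 0.119) or TBHQ replicate 3 (FDR 0.0659). Mars2 with TBHQ was at 2.62, 2.71 and 2.94 FPKM, above all control libraries, with 0.27 (FDR 0.00587), lost without control replicate 3 (FDR 0.0759) or TBHQ replicate 3 (FDR 0.0502). Iars2 gave 10.4, 11.3 and 11.5 FPKM in the control and 12.7, 12.3 and 13.1 with TBHQ. It rose without overlap, at 0.19 (FDR 0.00103). Yars2 was at 12.5, 12.3 and 12.1 FPKM in the control and 14.2, 13.3 and 13.8 with TBHQ. Its groups did not overlap either, but the call, 0.16 (FDR 0.0399), was lost without control replicate 1 (FDR 0.0646), control replicate 2 (FDR 0.0940), control replicate 3 (FDR 0.113), TBHQ replicate 1 (FDR 0.140) or TBHQ replicate 3 (FDR 0.0807) and under no filter on low counts (FDR 0.135) and DESeq2 (FDR 0.0634). Among cytosolic genes Iars (0.10, FDR 0.0128) and Tars (0.12, FDR 0.0105) were higher and Rars (−0.12, FDR 0.00684) and Farsb (−0.11, FDR 0.0324) lower. The call for Iars was lost without control replicate 2 (FDR 0.0564) and under no filter on low counts (FDR 0.0505), that for Tars without control replicate 2 (FDR 0.0558) or control replicate 3 (FDR 0.105) and that for Rars without TBHQ replicate 2 (FDR 0.0545). For Farsb it was lost without control replicate 1 (FDR 0.113), control replicate 3 (FDR 0.0630), TBHQ replicate 2 (FDR 0.0924) or TBHQ replicate 3 (FDR 0.109), and under no filter on low counts (FDR 0.0779). Nars (113, 109.6 and 113 FPKM), Aars (34.1, 33.2 and 34.1), Cars (19.1, 19.7 and 20.4) and Eprs (26.5, 25.2 and 26.6) overlapped with the control and were not called.

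LPS + TBHQ was compared with LPS to ask whether TBHQ given first alters the response. Some mitochondrial enzymes were higher when TBHQ came first than with LPS alone. Of 17 mitochondrial genes 6 were higher and 1 lower at a median log2 fold change of 0.05, and of 21 cytosolic genes 1 was higher and 2 lower at a median of −0.02. Over all genes tested 11.7% were higher and 12.2% lower, with a median of 0.0023. The mitochondrial median was 0.0757 without LPS replicate 1 and 0.106 without LPS replicate 3, and the cytosolic one −0.00903 without LPS replicate 1, −0.0418 without LPS replicate 2, −0.0112 without LPS + TBHQ replicate 1, −0.00381 without LPS + TBHQ replicate 2 and −0.0453 without LPS + TBHQ replicate 3. Under total library size the cytosolic median turned to 0.00589 and the cytosolic split was 2 higher and 2 lower, where 2061 of all 13691 genes tested were higher and 1401 lower. By the other methods the cytosolic split also moved. It was 1 higher and 3 lower by DESeq2, which added Gars as lower (FDR 0.0326), and 1 and 4 by limma on log2(FPKM + 1), which added Gars (FDR 0.0325) and Dars (FDR 0.0446). The 7 members called higher became 4 without LPS replicate 1, LPS + TBHQ replicate 2 or LPS + TBHQ replicate 3. Mars2 reached 2.05, 1.90 and 1.98 FPKM, above all LPS libraries, with 0.34 ± 0.0412 (SE, n = 3, FDR 0.00236). Cars2 was at 2.79, 3.07 and 3.10 FPKM and did not overlap with LPS either, with 0.30 ± 0.0515 (SE, n = 3, FDR 0.0101), lost without LPS + TBHQ replicate 3 (FDR 0.0501). Vars2 had 3.67, 3.70 and 3.75 FPKM, again above all LPS libraries, with 0.24 ± 0.0359 (SE, n = 3, FDR 0.0327). The Vars2 call was lost without LPS replicate 1 (FDR 0.119), LPS replicate 2 (FDR 0.0897), LPS + TBHQ replicate 1 (FDR 0.0575), LPS + TBHQ replicate 2 (FDR 0.0710) or LPS + TBHQ replicate 3 (FDR 0.0852), and under no filter on low counts (FDR 0.0737), the compared conditions alone (FDR 0.0565) and DESeq2 (FDR 0.0733). Iars2 (0.17, FDR 0.00511) and Yars2 (0.20, FDR 0.0220) were also raised, the latter lost without LPS replicate 1 (FDR 0.121) or LPS + TBHQ replicate 2 (FDR 0.152), and under the compared conditions alone (FDR 0.0503).

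Lars2 fell in this comparison as well, to 22.8, 17.7 and 15.9 FPKM, below all LPS libraries (24.7, 25.2 and 27.8). Its log2 fold change was −0.47 ± 0.161 (SE, n = 3, FDR 0.00111). Nars, the highest member, gave 163, 163 and 164 FPKM and lay below LPS, with −0.14 ± 0.0238 (SE, n = 3, FDR 5.99e-04), and Sars gave 146, 145 and 146 FPKM, also below, with −0.13 ± 0.0342 (SE, n = 3, FDR 0.00365). The call for Sars was lost without LPS replicate 1 (FDR 0.0552). Qars was raised (0.10, FDR 0.0346), a call lost without LPS replicate 1 (FDR 0.124), LPS replicate 2 (FDR 0.0636), LPS + TBHQ replicate 2 (FDR 0.163) or LPS + TBHQ replicate 3 (FDR 0.0698), and under the compared conditions alone (FDR 0.0779). Aars (52.0, 53.2 and 54.0 FPKM), Cars (27.6, 29.8 and 27.8) and Wars (72.6, 68.5 and 69.3) overlapped with LPS, Wars lying above it unscaled, and were not called. Cars was called lower without LPS + TBHQ replicate 2 (FDR 0.0361). Eprs was at 32.6, 32.6 and 32.8 FPKM, above all LPS libraries but not called. All 12 interferon-induced genes fell, at a median of −1.58.

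PIC + TBHQ was compared with PIC for the same question. Here 7 of 17 mitochondrial genes were higher and 1 lower at a median log2 fold change of 0.13, and 4 of 21 cytosolic genes were higher and 2 lower at a median of 0.01. Over all genes tested 15.8% were higher and 15.5% lower, with a median of 0.0089. The mitochondrial median was 0.0634 without PIC + TBHQ replicate 3 and 0.0879 without PIC replicate 3. The cytosolic one has no firm sign, being −0.0183 without PIC replicate 1, −0.0164 without PIC replicate 2, −0.00569 without PIC replicate 3, −0.0142 without PIC + TBHQ replicate 1 and −0.000789 without PIC + TBHQ replicate 2, and 0.0103 without PIC + TBHQ replicate 3. It was also negative with RLE size factors (−0.00888), DESeq2 (−0.00618), limma (−0.00418 and −0.00425) and a mean of at least 50 counts (−0.0121). Nor is the cytosolic split of calls firm. It was 4 higher and 5 lower by DESeq2, 4 and 4 by limma on log2(FPKM + 1), 4 and 3 with RLE size factors and 8 and 1 under total library size. Called lower beside Sars, given below, were Lars by DESeq2 (FDR 0.0368), limma (FDR 0.0239) and a mean of at least 50 counts (FDR 0.0379), and Hars by DESeq2 (FDR 0.0370), limma (FDR 0.0360), RLE size factors (FDR 0.0367), a mean of at least 50 counts (FDR 0.0230) and without PIC replicate 1 (FDR 0.0221) or PIC + TBHQ replicate 3 (FDR 0.0400). The mitochondrial split was 8 higher and 0 lower under total library size and 7 and 0 by DESeq2 and limma. Of all 13691 genes tested, total library size called 3398 higher and 1436 lower. Cars2 reached 2.53, 2.70 and 2.58 FPKM, above all PIC libraries, with 0.45 ± 0.0630 (SE, n = 3, FDR 2.16e-04). Mars2 was at 1.59, 1.66 and 1.61 FPKM without overlap, with 0.42 ± 0.0776 (SE, n = 3, FDR 3.19e-04). Vars2 gave 3.08, 2.81 and 2.82 FPKM, above all PIC libraries, with 0.34 (FDR 0.00287). In these PIC + TBHQ libraries it was below every control library. Iars2, Tars2 and Yars2 were also higher, the last (0.20, FDR 0.0157) lost without PIC replicate 1 (FDR 0.101), PIC replicate 3 (FDR 0.0508), PIC + TBHQ replicate 1 (FDR 0.0553) or PIC + TBHQ replicate 3 (FDR 0.0665), and under no filter on low counts (FDR 0.0563). Tarsl2 was at 1.44, 1.38 and 1.48 FPKM, above all PIC libraries, with 0.54 ± 0.0982 (SE, n = 3, FDR 0.00389).

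Vars, which fell with both stimuli, was at 48.1, 46.9 and 45.5 FPKM with PIC + TBHQ, above PIC and below the control, with 0.29 ± 0.0521 (SE, n = 3, FDR 5.96e-07). Wars had 71.1, 68.5 and 68.1 FPKM, above PIC, with 0.17 ± 0.0200 (SE, n = 3, FDR 3.38e-04), and all 12 interferon-induced genes fell at a median of −1.37. Qars was the remaining cytosolic gene raised (0.15, FDR 0.00137). Lower were Nars, with 179, 185 and 183 FPKM and −0.12 ± 0.0246 (SE, n = 3, FDR 0.00284), and Dars, the aspartate enzyme, with 34.0, 33.2 and 32.4 FPKM with PIC and 28.5, 29.2 and 30.1 with PIC + TBHQ and −0.17 ± 0.0312 (SE, n = 3, FDR 0.00101). Neither overlapped with PIC as deposited, but Nars did unscaled, and under total library size its call was lost (FDR 0.241). Lars2 was at 23.1, 21.5 and 20.3 FPKM against 31.0, 25.4 and 23.2 with PIC, lower without overlap as deposited but with overlap unscaled (−0.28 ± 0.137, SE, n = 3, FDR 0.0419). This call was lost without PIC replicate 1 (−0.169, FDR 0.288), PIC + TBHQ replicate 2 (FDR 0.0825) or PIC + TBHQ replicate 3 (FDR 0.143), and under total library size (FDR 0.125), DESeq2 (FDR 0.195), limma on log2(FPKM + 1) (FDR 0.176) and limma on log2(FPKM + 0.1) (FDR 0.176). Sars (165, 159 and 159.7 FPKM), Aars (56.7, 55.7 and 54.6), Cars (32.4, 30.3 and 30.2) and Eprs (30.7, 32.3 and 31.1) were not called. Against PIC, Sars lay below as deposited and overlapped unscaled, while Aars and Eprs overlapped as deposited and lay above unscaled. The calls varied, Eprs being called higher under total library size (0.10, FDR 0.0138) and Sars lower by DESeq2 (FDR 0.0317), with a mean of at least 50 counts (FDR 0.0387) and without PIC replicate 3 (FDR 0.0277). Aarsd1 had 0.277, 0.323 and 0.266 FPKM from 13, 14 and 13 counts, and its call, 1.12 (FDR 0.0493), was lost without PIC replicate 1 (FDR 0.242), PIC replicate 2 (FDR 0.0892), PIC + TBHQ replicate 1 (FDR 0.0851), PIC + TBHQ replicate 2 (FDR 0.122) or PIC + TBHQ replicate 3 (FDR 0.0743), and under RLE size factors (FDR 0.0533), no filter on low counts (FDR 0.0973), the compared conditions alone (FDR 0.0723) and DESeq2 (FDR 0.0813).

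Whether TBHQ acted differently on the PIC and the LPS response was tested as the difference between these effects. In edgeR 0 of 42 members were called, where 0.825% of all genes tested were higher and 1.01% lower. Gars, Vars and Wars, named after their values were seen, were the 3 with an unadjusted p below 0.05. The lowest FDR was that of Vars, at a difference of 0.20 ± 0.0711 (SE, n = 3, FDR 0.0572). DESeq2 called 1 member, Vars, at FDR 0.0303, and total library size also 1, Vars, at FDR 0.00976, whereas limma called 0. Leaving out LPS replicate 2 (FDR 0.0384), PIC replicate 3 (FDR 0.0152) or LPS + TBHQ replicate 3 (FDR 0.0447) also brought Vars below the threshold. Of the 12 interferon-induced genes 8 were higher in this difference, at a median of 0.51.

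**Figure D2:**
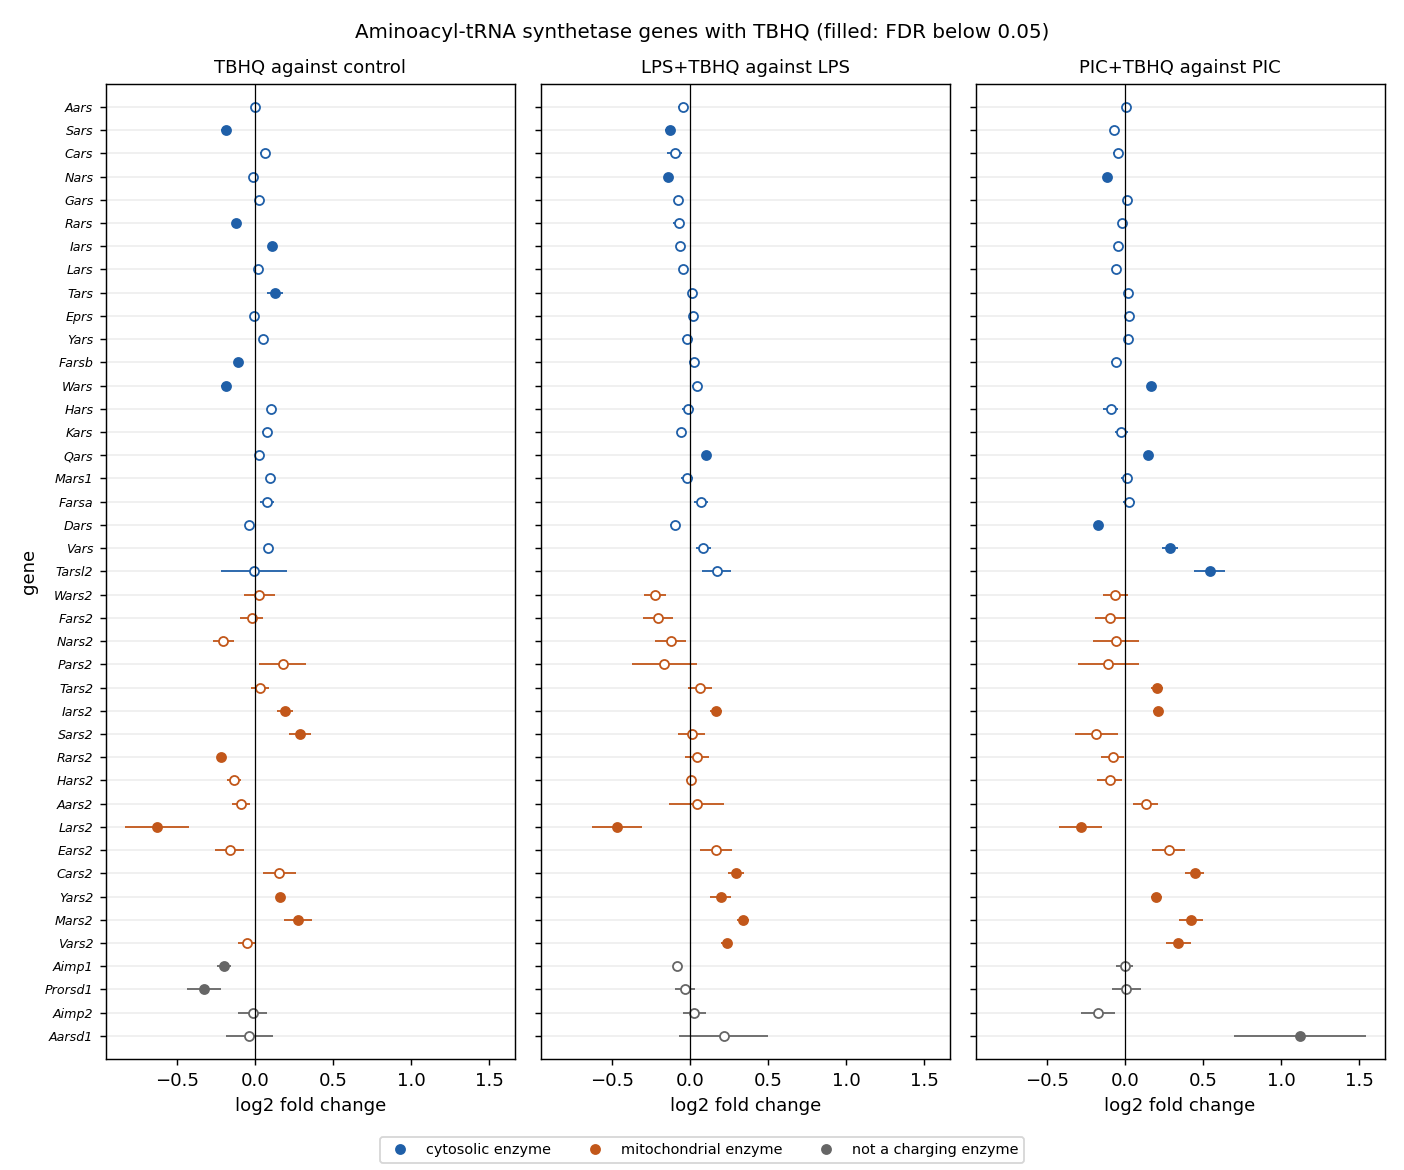
Log2 fold change of each of 41 genes with TBHQ (points, with bars for the standard error, n = 3 libraries per condition; filled points are called at FDR below 0.05 by edgeR with TMM scaling) in TBHQ against control, LPS + TBHQ against LPS and PIC + TBHQ against PIC. Lars2 lies left of 0 in each panel, and Mars2, Iars2 and Yars2 lie right of it. Standard errors come from the libraries of the compared conditions alone, and calls from the fit of all libraries.

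**Figure D3:**
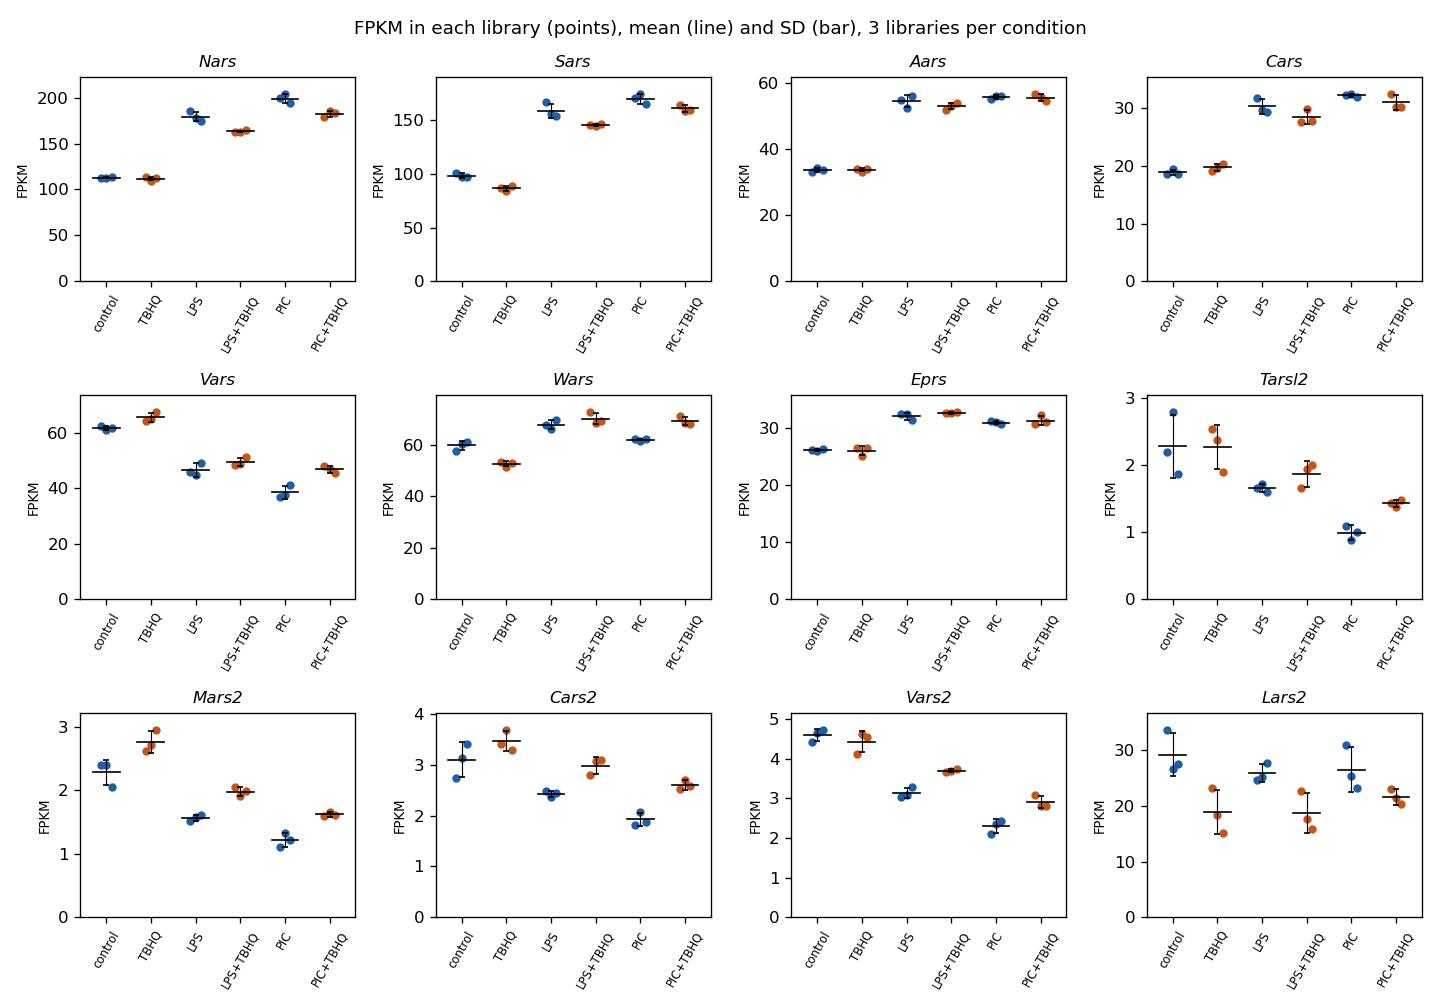
FPKM of 12 genes in each of the 18 libraries (points), with the mean (line) and SD (bar) of the 3 libraries of a condition; every axis starts at 0. In the LPS and PIC libraries without TBHQ, Nars, Sars, Aars and Cars lie above and Vars2, Mars2, Cars2 and Vars below all control libraries.

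Of the other genes around tRNA charging, 24 genes of ATF4 and amino acid supply were set beside the synthetases. They rose in 21 of 24 cases with LPS at a median log2 fold change of 0.60, and with PIC 20 rose and 1 fell at a median of 0.49. The largest were Slc7a11, the cystine transporter (2.10 with LPS and 2.52 with PIC), and Sesn2, a stress sensor of the amino acid response (1.51 and 1.82). With TBHQ alone 10 rose and 7 fell, led by Slc7a11 (1.80) and Ddit3 (−1.29), whereas 4 rose and 6 fell in LPS + TBHQ against LPS and 10 rose and 3 fell in PIC + TBHQ against PIC. Among 14 partners of tRNA charging 1 rose and 4 fell with LPS and 2 rose and 8 fell with PIC, at medians of −0.16 and −0.35. Sephs2, of selenocysteine synthesis, fell with each (−0.58 and −0.58). Of 9 elongation factors 2 rose and 3 fell with LPS and 5 rose and 2 fell with PIC, with the mitochondrial factors Tsfm (−0.49 and −0.57) and Gfm1 (−0.27 and −0.32) lower, Gfm2 (0.27 and 0.25) higher and Tufm (−0.08 and −0.01) not called. Of 7 eIF2α kinases and phosphatase subunits 2 rose and 2 fell with LPS and 3 rose and 2 fell with PIC, and Ppp1r15a, a phosphatase subunit of the stress response, rose (0.67 and 1.08). With TBHQ alone 1 of the 14 partners, 3 of the 9 elongation factors and 2 of these 7 genes rose, and 3, 1 and 2 fell. Over all genes tested the shares higher and lower were 24% and 24.1% with LPS, 28.6% and 30.1% with PIC and 14.2% and 14.8% with TBHQ alone. They were 11.7% and 12.2% in LPS + TBHQ against LPS and 15.8% and 15.5% in PIC + TBHQ against PIC. Counts such as 4 of 14, 2 and 3 of 9, and 2 of 7 with LPS lie near these shares. The 12 interferon-induced genes had 1 higher and 10 lower with TBHQ alone, at a median of −0.50.

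The promoters of the members were searched for known response elements. Windows from RefSeq (GRCm38.p6), 250 bases before to 50 after the gene start, were found for 32 of 42 members, 14 cytosolic, 14 mitochondrial and 4 others. Cars, Hars, Hars2, Lars, Nars, Pars2, Rars, Vars and Wars were among those with no window used here. Both strands were searched for 4 motifs. The C/EBP-ATF response element TTGCATCA occurred in 1.03% of 27025 genes and in 4 of the 32 members (Aars, Iars, Tars and Yars), all of them cytosolic genes of the ATF4 list, and in 0 of 14 mitochondrial windows searched. The interferon-stimulated element GAAANNGAAA was in 3.99% of genes and 1 member (Qars), the antioxidant element core TGACNNNGC in 14.0% and 8 members, and the E-box CACGTG in 8.09% and 5 members. A match is a description of these letters and not of a bound site, and the ATF4 list was chosen with earlier results known. The stretches of Aars and Tars, from genes called higher with both stimuli, are shown with the element in capitals, 5′ to 3′ on the gene's strand, Aars at chr8:111033705-111033762 (+) and Tars at chr15:11399659-11399698 (−).
Aars: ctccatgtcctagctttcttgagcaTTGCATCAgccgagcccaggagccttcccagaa
Tars: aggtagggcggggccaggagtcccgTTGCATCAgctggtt

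Some counts may hold reads of other genes. By 50-base words, 13.5% of Aars occurs in Exosc6, which overlaps it by 1326 bases on the same strand and had 0 counts, and 7.15% of Iars in Gm4849. Overlaps are those of whole gene spans, introns included. Of genes with a mean of at least 5 counts, not named so far, those that overlap members on the opposite strand are at Farsb (Sgpp2, 2315 bases), Sars (a non-coding gene, ENSMUSG00000120945, 960 bases), Wars2 (Mir6481, 110 bases), Aimp2 (Eif2ak1, 1548 bases), Wars (Wdr25, 544 bases), Aimp1 (Tbck, 227 bases), Hars and Hars2 (198 bases), Fars2 (Lyrm4, 115 bases), Ears2 (Ubfd1, 89 bases), Mars1 (Ddit3, 68 bases) and Yars (C77080, 30 bases). On the same strand they are at Wars2 (Gm42717, 3463 bases) and Farsb (4833412K13Rik, 1479 bases). Positions are as in the authors' files, where the build is named GRCm38/mm39. They differ from those of the RefSeq windows (GRCm38.p6), so the 2 sets of positions cannot be set against each other.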

How the data were processed

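Libraries were made from poly(A) RNA. According to the submitters' processing notes, the authors aligned reads with HISAT2 2.0.5 to GRCm38/mm39, assembled with StringTie 1.3.3b and counted with featureCounts 1.5.0-p3. The study's methods describe strand-specific libraries, the labels name directional and non-directional ones, and the strand setting of the counting is not given. The authors deposited raw gene counts, FPKM and, as an other value per gene, its length. These FPKM equal counts scaled by gene length and by total counts, times 1 further constant per library. Counts were fitted with edgeR 4.0.16 (filterByExpr, TMM, quasi-likelihood, 1 coefficient per condition) in R 4.3.3, with Benjamini-Hochberg adjustment over 13691 genes and calls at FDR below 0.05. Levels are the deposited FPKM. Named genes were, per comparison, up to 4 called members of largest absolute log2 fold change in each direction, with Wars, Eprs and the highest and lowest member. Alternatives were DESeq2 1.42.0, RLE and total-library-size scaling, other filters (none, or a mean of at least 50 counts), the compared conditions only, a replicate block, limma 3.58.1 on log2(FPKM + 1 or 0.1), stricter thresholds and leaving out each library. Levels without the constant were added after the data were seen. The fit was also run on simulated data, whose outcome is not reported here and on which no result rests. The values of 1 member, which is in the counts, are not reported here. Depth was 14423390 to 18851626 counts per library. Members and lists were chosen with earlier results of these data known.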

Additional observations from a re-analysis of the deposited data

How the results depend on the processing

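Depth limits the low members: Aarsd1 averaged 16.7 counts per library, and its calls rest on few counts. With 3 libraries per condition, calls at small fold changes often rested on 1 library. Of 714 gene results recomputed without 1 library, 632 stayed on their side of the threshold and 82 did not, and 0 called results changed sign. Eprs, when not called, had no firm sign in 2 comparisons. Over all alternatives its estimate ran from −0.0224 to 0.0132 in TBHQ against control and from −0.0213 to 0.0491 in the difference of TBHQ effects. The members called in the main fit, with Wars and Eprs called or not, make 117 gene results. Of these DESeq2 left 110 on their side, limma with either pseudocount 114, RLE size factors 116, no filter on low counts 106, a mean of at least 50 counts 112 of 114, the compared conditions alone 108 and total library size 101 of 117. Where no cause is given below, the cause was not tested.

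Under total library size, members higher and lower numbered 9 and 27 in PIC against control and 0 and 30 in PIC against LPS, 18 members were lower in LPS against control, 1 was lower in PIC + TBHQ against PIC, and 1 was higher in the difference of TBHQ effects. Of all 13691 genes tested, 2379 were then higher and 6635 lower in PIC against control, and 985 and 4373 in PIC against LPS. Lower were 4558 in LPS against control and 1436 in PIC + TBHQ against PIC, and 235 were higher in the difference. Cytosolic and mitochondrial median log2 fold changes became 0.161 and −0.266 (LPS), 0.0304 and −0.552 (PIC), −0.112 and −0.272 (PIC against LPS), 0.0757 and 0.203 (PIC + TBHQ against PIC), with 0.0766 for the cytosolic difference. With PIC against control Wars turned to −0.182, Kars to −0.106, Hars to −0.0229 and Farsa to −0.0949, and in PIC against LPS Sars turned to −0.04 and Farsa to −0.0091.

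With RLE size factors the cytosolic median in PIC against control was 0.266. With a mean of at least 50 counts it was 0.273 and the mitochondrial −0.31. That filter gave 6 members lower in LPS + TBHQ against LPS. In PIC + TBHQ against PIC 6 were lower and the cytosolic median was −0.0121. Of all 10451 genes then tested, 1680 and 2253 were lower in these comparisons. DESeq2 had 5 lower in PIC + TBHQ against PIC and 1 higher in the difference. Of all genes it tested, 2038 of 12479 were lower in the former and 101 of 6897 higher in the latter. By limma on log2(FPKM + 1) and log2(FPKM + 0.1) the mitochondrial median with PIC was −0.213 and −0.312. Under each, 5 members were lower in LPS + TBHQ against LPS, where 1498 and 1466 of all 13691 genes tested were lower. In PIC against LPS 5 members were higher under each, where 2100 and 2000 of all genes were higher. The mitochondrial median in PIC + TBHQ against PIC was 0.0851 under the first. With the compared conditions alone, where fewer samples set the spread, 4 members were higher in LPS + TBHQ against LPS and 1 in PIC against LPS. Of all genes tested, 1496 of 12813 and 1829 of 12750 were then higher.

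At FDR below 0.01, 2 members were higher with TBHQ, 3 in LPS + TBHQ against LPS and 1 in PIC against LPS. The share of all genes at this threshold alone is not given here, so these counts are not read further. With an absolute log2 fold change above 2 as well, 0 members were called in either direction in each comparison by edgeR, and 0 by DESeq2 and limma, against 3 to 31 members at an unadjusted p below 0.05.

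The replicate numbers gave no broad sign of pairing. Over 45 pairs of same-numbered libraries the correlations of deviations from the condition means ran from −0.0444 to 0.0645, 0 of them over 0.1. Such correlations across genes cannot exclude a pairing limited to some genes. With the replicate block all 117 gene results stayed on their side of the threshold, and it added 5 calls not among them: Hars higher with TBHQ (FDR 0.0477), Lars2 lower with PIC (FDR 0.0499), Wars2 lower in LPS + TBHQ against LPS (FDR 0.0486), Ears2 higher in PIC + TBHQ against PIC (FDR 0.0456) and Vars higher in the difference of TBHQ effects (FDR 0.0342).

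Levels without the constant in the deposited FPKM were compared after the data were seen. Of 135 cases of a member in a comparison with all libraries apart, 113 kept their order, 16 overlapped and 6 turned, while 42 of 117 cases with overlap came apart. Libraries that lie apart are common among all genes. A separate count, which differs for some members, gave 17.8% to 30.6% of all genes tested higher without overlap, depending on the comparison. Lower without overlap were 17.9% to 32.2%. For the members these shares were 9.52% to 38.1% and 7.14% to 40.5%. How many of all genes kept their order is not given here.

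Leaving out 1 library at a time gave these ranges, ordered as TBHQ, LPS and PIC (each against control), TBHQ added to LPS, TBHQ added to PIC, PIC compared with LPS, and the difference between the TBHQ effects. Members higher were 2 to 6, 14 to 16, 14 to 17, 4 to 8, 10 to 12, 1 to 3 and 0 to 1. Members lower were 6 to 8, 7 to 11, 16 to 16, 2 to 4, 2 to 4, 8 to 10 and 0 to 0. Of all genes, 13965 to 14027 were tested in these fits. Genes higher were 1539 to 1716, 2960 to 3211, 3654 to 3876, 1231 to 1584, 1517 to 1841, 1794 to 1897 and 72 to 115. Genes lower were 1672 to 1772, 2895 to 3072, 3676 to 3889, 1368 to 1535, 1826 to 2116, 1353 to 1570 and 86 to 239. Cytosolic medians were 0.0169 to 0.0345, 0.243 to 0.286, 0.241 to 0.284, −0.0453 to −0.00381, −0.0183 to 0.0103, 0.00253 to 0.0298 and 0.0106 to 0.0441. Mitochondrial medians were −0.0425 to −0.00366, −0.197 to −0.136, −0.355 to −0.254, 0.0356 to 0.106, 0.0634 to 0.184, −0.201 to −0.110 and 0.0337 to 0.101.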

Other observations

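By catalytic class, the structural families into which synthetases fall, 6 of 9 cytosolic class I genes (Eprs, with an enzyme of each class, was left out) rose and 1 fell with LPS, and 8 of 11 class II genes rose and 1 fell, at median log2 fold changes of 0.25 and 0.20. With PIC 5 of 9 and 9 of 11 rose, 1 fell in each class, and the medians were 0.25 and 0.29. Under total library size with PIC, Yars of class I lost its call, and Wars, Qars and Mars1 were called lower. In class II, Farsb, Hars and Farsa lost theirs, and Kars and Dars were called lower. With LPS that setting ended the calls of Kars and Hars of class II and called Dars lower. Among mitochondrial genes 6 of 9 class I and 2 of 8 class II genes fell with LPS, and 7 and 5 with PIC, at medians of −0.33 and −0.11 with LPS and −0.37 and −0.30 with PIC. The shares over all genes tested in the main fit were 24% raised and 24.1% lowered for LPS and 28.6% and 30.1% for PIC, so 2 of 8 is near the share of all genes. Total library size also called Lars2 and Rars2 of class I and Tars2 and Aars2 of class II lower with LPS. With PIC it added Lars2 of class I and Fars2, Sars2 and Pars2 of class II as lower. The difference between the classes was not tested.

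The replicate number with the highest FPKM was counted for each member in each condition. Lars2 was highest in replicate 1 in 5 of 6 conditions, LPS being the exception. Of 42 members 5 (4, without Yars, when counts are scaled by length and total alone) had the same number highest in at least 5 of 6 conditions and 0 in 6 of 6: Lars2 and Nars2 for replicate 1, and Pars2, Sars2 and Yars for replicate 3. This count was chosen after the values were seen and was not made over all genes, so it has no share to be set beside. Its part in the results for these genes was not tested.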
